A study of Mus musculus with 4 samples.

Results

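The genes described here are 9 members of one chemotactic axis in mouse tumors, out of 32285 genes in the count matrices. They were taken by symbol and comprise the neutrophil-attracting ligands Cxcl1, Cxcl2, Cxcl3, Cxcl5 and Ppbp, the platelet chemokine Pf4, the receptor Cxcr2, and the Cxcl12 and Cxcr4 pair. All 9 were found. The data are single-cell RNA-seq of subcutaneous tumors grown in C57BL/6 mice from MC38, a colon adenocarcinoma cell line. WT tumors carried unedited Rac1, and A159V tumors carried a homozygous CRISPR knock-in of the RAC1 A159V substitution in the cancer cells alone, taken from a single clone as far as the methods state. Mice received anti-PD1, an antibody against an inhibitory receptor of T cells, or an IgG isotype control, so there were 4 groups with a single library in each. Where 4 values follow each other below without names, they stand in the order WT IgG, then WT anti-PD1, then A159V IgG, then A159V anti-PD1. In every group CD45+ and CD45- cells were split on magnetic beads and then mixed again in fixed proportions, so the shares of leukocytes and tumor cells were partly set by that step. The sample labels used here give no age, sex or number of mice per library.

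Chemokines are small secreted proteins that bind to glycosaminoglycans and guide leukocytes along a gradient. Cxcl1, Cxcl2, Cxcl3, Cxcl5 and Ppbp carry an ELR motif before their CXC cysteines and act through Cxcr2, a G protein-coupled receptor of neutrophils. Pf4, also called platelet factor 4, lacks that motif and is stored with Ppbp in platelet granules, and macrophages can also transcribe it. Cxcl12 acts through Cxcr4 and retains neutrophils in bone marrow, where Cxcr2 and Cxcr4 are known to work in opposite directions on neutrophil release.

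Of the 9 genes, 6 lie in the same stretch of the plus strand of chromosome 5 (GRCm38) within 146579 bases. Their order is Cxcl5 (chr5:90759360-90761624), Ppbp (chr5:90768518-90770063), Pf4 (chr5:90772435-90773383), Cxcl3 (chr5:90786103-90789600), Cxcl1 (chr5:90891241-90893115) and Cxcl2 (chr5:90903871-90905938). Cxcr2 (chr1:74153989-74161246, plus strand) and Cxcr4 (chr1:128588199-128592293, minus strand) lie on chromosome 1, and Cxcl12 (chr6:117168535-117181367, plus strand) lies on chromosome 6. Transcripts of Cxcl2 and Cxcl3 shared 116 windows of 60 identical bases, of 2179 in Cxcl2 and 3607 in Cxcl3. The windows were taken at every base, so neighboring ones overlap and are not separate stretches. None of the other 35 pairs shared one. A read that lies wholly within such shared sequence cannot be assigned to either gene, so low Cxcl3 counts beside very high Cxcl2 counts are uncertain. Where the shared windows lie along the transcripts was not examined.

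The 120 bases before the annotated start of the 3 inducible ligands are shown because these ligands were read in neutrophil-like and macrophage-like cells of all 4 libraries, with Pf4 from the same gene cluster beside them for contrast. The sequences come from RefSeq (GRCm38.p6), and capitals mark matches to GGG, any 2 bases and then TTTCC, a form of the NF-kappa B motif, on either strand. They cover chr5:90891125-90891244 for Cxcl1, chr5:90903779-90903898 for Cxcl2, chr5:90785981-90786100 for Cxcl3 and chr5:90772315-90772434 for Pf4, all on the plus strand. The gene places above come from GENCODE, and the windows of Cxcl1 and Cxcl2 end inside the genes as placed there. Positions below are counted from the RefSeq starts.
Cxcl1: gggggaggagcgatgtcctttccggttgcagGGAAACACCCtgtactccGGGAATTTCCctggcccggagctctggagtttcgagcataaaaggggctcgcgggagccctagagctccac
Cxcl2: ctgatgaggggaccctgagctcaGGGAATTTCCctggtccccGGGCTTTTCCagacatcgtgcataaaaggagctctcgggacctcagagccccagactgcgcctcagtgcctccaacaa
Cxcl3: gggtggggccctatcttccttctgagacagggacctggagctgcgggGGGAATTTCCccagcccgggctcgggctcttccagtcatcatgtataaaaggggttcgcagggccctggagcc
Pf4: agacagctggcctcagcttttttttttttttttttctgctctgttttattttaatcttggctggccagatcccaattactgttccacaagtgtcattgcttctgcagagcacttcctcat
Cxcl1 had 2 matches, from -89 to -80 (minus strand) and from -71 to -62. Cxcl2 had 2, from -97 to -88 and from -78 to -69, and Cxcl3 had 1, from -73 to -64. The matches within a promoter did not overlap. In windows of 300 bases (250 before to 50 after the start), 535 of 32851 promoters held the motif (1.63%). Among the members, 3 of the 8 with a promoter in the table held it, and Ppbp, Pf4, Cxcl12, Cxcr2 and Cxcr4 held none in these letters. A match describes the sequence only.

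The libraries held 7430 to 9311 barcodes and 54402632 to 125227747 unique molecular identifiers (UMIs), each UMI counting 1 captured RNA molecule. Cells with more than 500 genes and no doublet call were analyzed, which left 6466 to 8248 cells per library with median depths of 3304 to 4175 UMIs. Cell classes were rebuilt here by clustering without the member genes and named from marker lists, so class sizes may differ from those of the study. Neutrophil-like cells numbered 92, 558, 95 and 216, macrophage-like cells 2960, 1706, 2800 and 3552, tumor-like cells 892, 25, 2671 and 1980, and stromal-like cells 147, 1570, 188 and 199. A further cluster, led by Tafa1, Csmd3, Plet1 and Edil3, passed no naming rule and is called the Edil3 cluster (1121, 30, 123 and 75 cells). The WT anti-PD1 library stood apart, with few tumor-like cells, most of the stromal-like cells and 172 endothelial-like cells against 2 to 4 in the others. Its neutrophil-like and macrophage-like cells also carried more stromal marker RNA, 1240 and 728 summed CPM over 8 markers, against 54.8 to 198 and 43.5 to 81.9 CPM in the other libraries. Between 52 and 55 barcodes of each library also occurred in another library. All 11 neutrophil markers were detected in the neutrophil-like cells of every library.

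A level is the sum of UMIs in a class scaled by all its UMIs to CPM, the usual depth-normalized unit, with exact Poisson 95% intervals where given. Levels count 3′ ends and are not divided by gene length. With 1 library per group there was no test, and every interval covers counting error only, not differences between tumors. Each comparison below is between libraries, and genotype, treatment, tumor and library cannot be told apart in it. Within a class summed from many cells, fewer expressing cells and less RNA per cell also give the same fall in CPM.

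The ligands fell into 3 patterns by class. Cxcl2 and Cxcl3 were highest in neutrophil-like and next in macrophage-like cells in all 4 libraries. Cxcl1 was shared by tumor-like, stromal-like and myeloid cells, Pf4 and Ppbp were highest in macrophage-like cells, and Cxcl5 and Cxcl12 were highest in stromal-like cells among classes of at least 50 cells except for Cxcl12 in the endothelial-like cells of WT anti-PD1. The receptor Cxcr2 was high in neutrophil-like cells and at most 2.40 CPM in the other named classes with at least 50 cells, while Cxcr4 was found across the leukocyte classes.

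**Figure D1:**
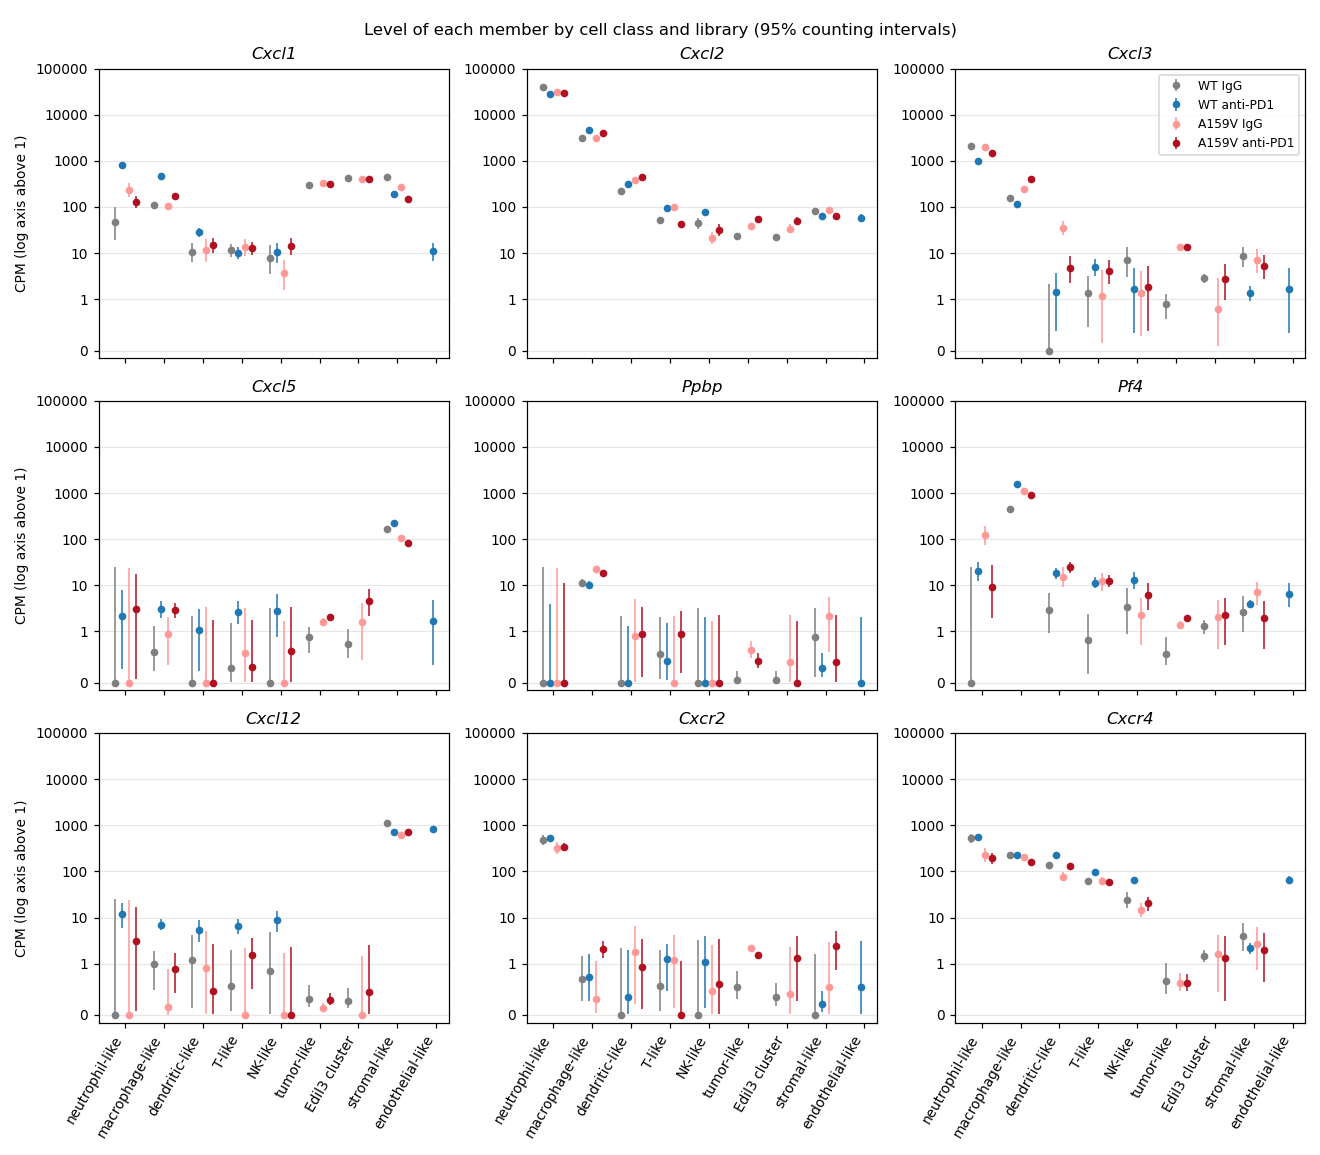
CPM of each of the 9 genes (log axis above 1 CPM) by cell class, with 1 point per library in classes of at least 50 cells and bars for exact Poisson 95% intervals. Cxcl2 lies between 28728 and 38899 CPM in neutrophil-like cells, while Cxcr2 lies between 327 and 519 CPM in neutrophil-like cells and at or below 2.40 CPM in the other classes plotted.

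**Figure D2:**
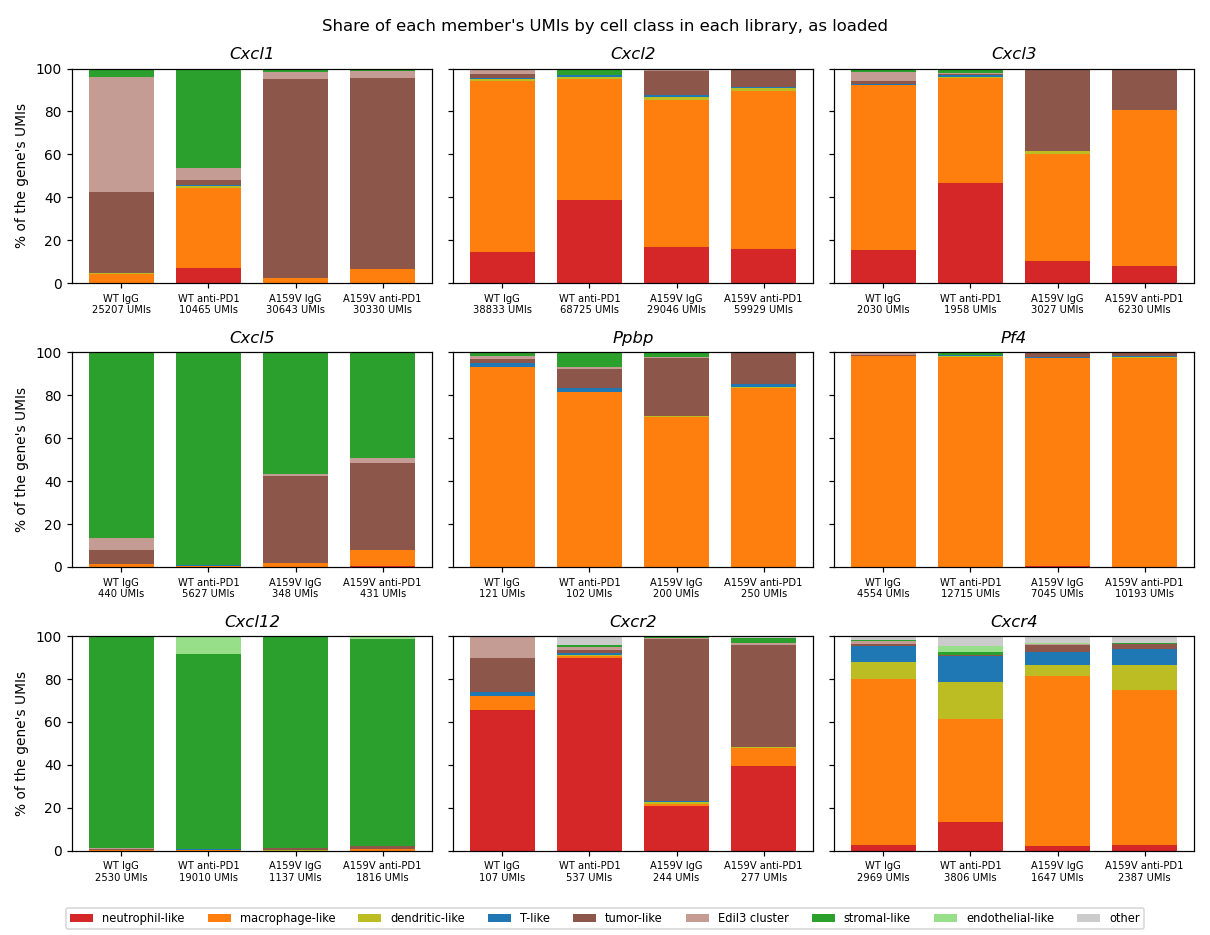
Share of all UMIs of each gene (%, stacked bars) that came from each cell class in each library, with the gene's total UMIs under each bar. Macrophage-like cells give most Cxcl2 UMIs in every library, tumor-like cells give 92.6% and 89.0% of Cxcl1 UMIs in the A159V libraries, and stromal-like cells give 90.9% to 98.7% of Cxcl12 UMIs. Tumor-like cells also give most UMIs of all genes in the A159V libraries, by the shares stated below with Cxcr2.

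A member was called different when its CPM moved past 2-fold, with a mean of at least 50 CPM over both libraries and at least 10 UMIs. Over the 7 named classes with enough cells, 11 of 59 such member ratios passed 2-fold (18.6%), beside 6.06% of all gene ratios tested over the same classes and comparisons. The count was 18 of 82 with a minimum of 10 CPM, beside 7.12% of all gene ratios, and 39 of 143 with 1 UMI in each library, beside 8.92%. These shares weigh the classes differently and are not like for like. At the 50 CPM minimum, neutrophil-like cells gave 6, 5 and 6 of the 59 member ratios but 2508, 2440 and 2595 of the 66628 gene ratios. The calls also include Pf4 in neutrophil-like cells in both comparisons with A159V IgG, on at most 19 UMIs per library. In neutrophil-like cells, 3 of 6 members tested passed 2-fold between A159V IgG and WT IgG, beside 16.5% of all genes tested there. The same class had 2 of 5 members called between WT anti-PD1 and WT IgG (27.8% of all genes) and 1 of 6 between A159V anti-PD1 and A159V IgG (11% of all genes). In macrophage-like cells, 1 of 5 members was called between the IgG libraries (0.593% of all genes), 2 of 5 for anti-PD1 in WT (14.7%) and 0 of 5 for anti-PD1 in A159V (0.558%). In stromal-like cells, 0 of 4 members was called between the IgG libraries (0.659% of all genes), 1 of 4 for anti-PD1 in WT (8.78%) and 0 of 4 for anti-PD1 in A159V (1.27%). In tumor-like cells the only member above the minimum, Cxcl1, was called neither between the IgG libraries (1.88% of all genes) nor for anti-PD1 in A159V (0.0903%). In T-like cells, 0 of 2, 0 of 2 and 1 of 2 members were called in the 3 comparisons in the same order, beside 0.271%, 10.2% and 0.394% of all genes. In dendritic-like cells 0 of 2 members was called in each, beside 1.12%, 9.68% and 2.83%. NK-like cells had 1 member above the minimum, Cxcl2 in WT, which was not called (19.9% of all genes). The share of all genes past 2-fold was thus largest wherever WT anti-PD1 or the small neutrophil-like class entered, and members called there stand against that background.

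**Figure D3:**
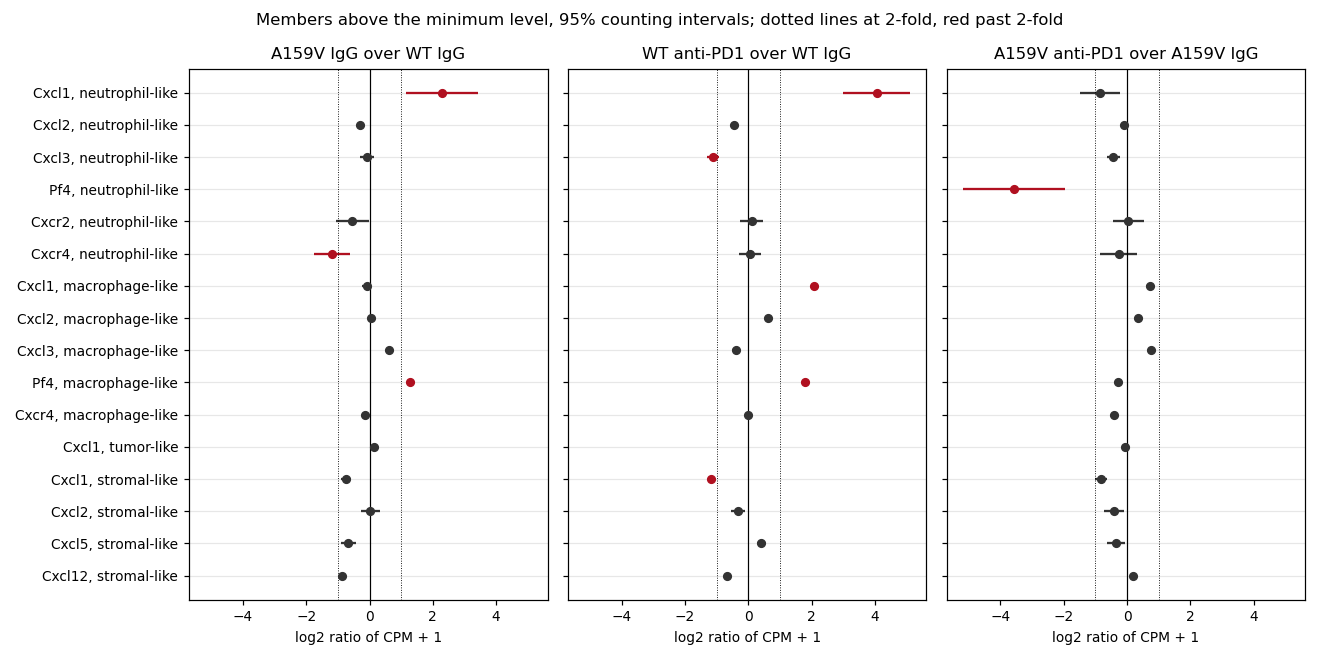
Log2 ratio of CPM + 1 for each member above the minimum level and with UMIs in both libraries (rows, by cell class), in 3 panels: the 2 IgG libraries (A159V over WT), the 2 WT libraries (anti-PD1 over IgG) and the 2 A159V libraries (anti-PD1 over IgG). Bars are 95% counting intervals, dotted lines mark 2-fold and red points lie past it, the farthest being Cxcl1 in neutrophil-like cells of WT anti-PD1 at 4.06 and Pf4 in neutrophil-like cells of A159V anti-PD1 at -3.58.

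Cxcl1, an early ligand of Cxcr2 made by many cell types, was read in the tumor-like cells of both genotypes, though not only there. In WT anti-PD1, stromal-like cells held 4806 of its UMIs and macrophage-like cells 3879. Its level in tumor-like cells was 302 CPM in WT IgG (95% interval 296 to 308), 331 for A159V IgG (327 to 335), and 313 for A159V anti-PD1 (309 to 317), and it was 250 CPM in the 25 tumor-like cells of WT anti-PD1. The levels lay within a narrow range across the libraries. The log2 ratio was 0.13 (0.10 to 0.16) between the IgG libraries and -0.08 (-0.11 to -0.06) for anti-PD1 in A159V, so neither came near 2-fold. The first was -0.12 when the Edil3 cluster was counted with tumor-like cells and -0.15 when cells were gated on marker UMIs, which turned its direction. In the Edil3 cluster Cxcl1 stood at 420, 411 and 403 CPM in WT IgG, A159V IgG and A159V anti-PD1. After thinning each cell to 1000 UMIs, 21.4% of tumor-like cells in WT IgG, 23.1% of those of A159V IgG and 21.2% of those of A159V anti-PD1 had a Cxcl1 UMI (76.7%, 79.4% and 81.8% before thinning, at median depths of 31216 to 42482 UMIs). T-like cells, which should lack the gene, had thinned shares of 0.935% to 2.22% at median depths of 1643 to 3070 UMIs. The richest 10% of tumor-like cells held 45.1%, 44.0% and 43.5% of the class's Cxcl1 UMIs in those 3 libraries.

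Cxcl1 in the other classes moved with WT anti-PD1. In macrophage-like cells it was 112 CPM in WT IgG, 479 for WT anti-PD1, 105 for A159V IgG, and 174 for A159V anti-PD1. WT anti-PD1 was thus the highest of the 4 and 4.24-fold above WT IgG (log2 ratio 2.08, 1.99 to 2.18), while the ratio for anti-PD1 in A159V was 0.72 (0.60 to 0.85). In neutrophil-like cells the values were 48.0, 815, 238 and 130 CPM, from 7, 757, 37 and 42 UMIs. WT anti-PD1 was again highest, with a log2 ratio of 4.06 (3.01 to 5.11) to WT IgG, and the ratio between the IgG libraries was 2.28 (1.14 to 3.43), which rests on 37 and 7 UMIs. A single cell held 14 of those 37 UMIs. Thinned shares of neutrophil-like cells with a Cxcl1 UMI were 4.55%, 17.0%, 8.43% and 6.91% (6.52%, 19.7%, 9.47% and 7.41% unthinned), again highest in WT anti-PD1. In stromal-like cells Cxcl1 was 445, 196, 267 and 152 CPM, highest in WT IgG. Its fall in WT anti-PD1 (log2 ratio -1.18, -1.28 to -1.08) passed 2-fold, but not under the marker gate (-0.89) or with every cell weighted equally (-0.99). The stromal marker RNA given above was high in the same myeloid cells of WT anti-PD1 that held more Cxcl1. Its part in that rise was not tested.

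Cxcl2, the ligand typical of activated myeloid cells, had the highest CPM of the members in neutrophil-like and macrophage-like cells of every library. In tumor-like cells Cxcl1 was higher, with 28372 UMIs beside 3287 of Cxcl2 in A159V IgG. Neutrophil-like cells held 38899 CPM in WT IgG (37894 to 39925), 28728 for WT anti-PD1 (28384 to 29074), 31446 for A159V IgG (30571 to 32339), and 29330 for A159V anti-PD1 (28742 to 29926). Nearly every neutrophil-like cell of each library carried it, with thinned shares of 96.6%, 99.4%, 94% and 97.9% in 88, 530, 83 and 188 cells deep enough (95.7%, 99.3%, 94.7% and 97.7% of all cells unthinned). T-like cells, which should lack the gene, had thinned shares of 3.80%, 9.74%, 3.47% and 4.51%. Log2 ratios in neutrophil-like cells were small, at -0.31 between the IgG libraries, -0.44 for anti-PD1 in WT and -0.10 for anti-PD1 in A159V. The last came to 0.0038 with median-of-ratios scaling, and the marker gate turned the last to 0.12 and the one before it to 0.45.

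Macrophage-like cells were the largest source of Cxcl2, giving 79.6%, 56.1%, 68.7% and 73.7% of its UMIs in the 4 libraries. Their level was 3091 CPM in WT IgG, 4764 for WT anti-PD1, 3178 for A159V IgG, and 3998 for A159V anti-PD1. Both anti-PD1 libraries thus lay above their IgG library, by log2 ratios of 0.62 (0.60 to 0.65) and 0.33 (0.31 to 0.36), neither past 2-fold. The IgG libraries differed by 0.04 (0.01 to 0.07). Thinned shares of macrophage-like cells with a Cxcl2 UMI were 47.4%, 74.9%, 47.5% and 51.0% (54.4%, 84.5%, 51.6% and 58.3% unthinned), again highest in WT anti-PD1. Neutrophil-like cells were 1.34% of cells in WT IgG, 8.63% for WT anti-PD1, 1.25% for A159V IgG, and 2.62% for A159V anti-PD1, and they gave 14.6%, 38.8%, 16.9% and 15.8% of Cxcl2 UMIs. With more than 200 genes per cell, neutrophil-like cells numbered 131, 767, 252 and 319 in place of 92, 558, 95 and 216. The near-equal neutrophil-like counts of the IgG libraries thus depended on the gene minimum. In dendritic-like cells Cxcl2 was 220, 316, 383 and 445 CPM, with 73.9% to 100% of the UMIs in the richest 10% of cells. The ratio between the IgG libraries there was 0.79, and it ran from -2.64 to 0.77 across other processing settings. In T-like cells Cxcl2 was 51.5, 96.5, 102 and 42.2 CPM, and in A159V IgG 45 of 775 cells held all of it. The T-like ratio for anti-PD1 in A159V (-1.25) was past 2-fold, and it was -0.35 when predicted doublets were kept.

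Cxcl3, the closest relative of Cxcl2 among the ligands, followed it by class at a lower level. In neutrophil-like cells it was 2146 CPM in WT IgG, 983 for WT anti-PD1, 2042 for A159V IgG, and 1515 for A159V anti-PD1. Both IgG libraries were alike (log2 ratio -0.07, -0.30 to 0.15) and WT anti-PD1 was lowest. Its ratio to WT IgG was -1.13 (-1.31 to -0.94), which was -0.94 with median-of-ratios scaling and -0.20 with the marker gate. In macrophage-like cells Cxcl3 was 156, 119, 240 and 410 CPM, so A159V anti-PD1 was highest. None of these ratios passed 2-fold, at 0.62 (0.51 to 0.72) between the IgG libraries, -0.39 (-0.51 to -0.28) for anti-PD1 in WT and 0.77 (0.68 to 0.85) for anti-PD1 in A159V. Macrophage-like cells with a Cxcl2 UMI had a Cxcl3 UMI in 7.09%, 6.66%, 10.8% and 17.1% of cases, against 0.140%, 0.509%, 1.24% and 0.929% of cells without one.

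The tumor-like cells of the A159V libraries carried more Cxcl3 than those of WT IgG. The level was 0.915 CPM in WT IgG (29 UMIs, 0.613 to 1.31), 13.3 in A159V IgG (1139 UMIs, 12.5 to 14.1) and 13.5 in A159V anti-PD1 (1161 UMIs, 12.7 to 14.3). Both A159V libraries thus lay above WT IgG and beside each other, and the 25 tumor-like cells of WT anti-PD1 held 7 UMIs (6.15 CPM, 2.47 to 12.7). The log2 ratio between the IgG libraries was 2.90 (2.64 to 3.16) with the pseudocount of 1 CPM, or 7.46-fold, and the plain ratio of CPM was 14.5, so the size depends on the pseudocount at this level. It stood at a mean level below the 50 CPM needed for a call. Ratios below that level were not rerun under the other processing settings, so how far this one depends on them is unknown. The log2 ratio was 0.02 (-0.09 to 0.13) for anti-PD1 in A159V. Both tumor-like clusters showed the difference between the IgG libraries, with ratios of 2.72 in the cluster led by Dynap and Gdf15 and 2.91 in that led by Nppb and Cxcl10. In the Edil3 cluster, by contrast, 91 UMIs in WT IgG (2.85 CPM) stood beside 2 in A159V IgG (0.806 CPM). That cluster held 1121 cells of WT IgG, more than the 892 of the tumor-like class. The ratios above leave it out, so their size also depends on that choice. Thinned to 1000 UMIs, 0.113%, 0.862% and 0.811% of tumor-like cells in WT IgG, A159V IgG and A159V anti-PD1 had a Cxcl3 UMI (1.91%, 6.81% and 11.1% unthinned), levels too near that of a single UMI per cell to compare. The signal was concentrated, since 3 of 892 tumor-like cells in WT IgG, 80 of 2671 in A159V IgG (3.0%) and 77 of 1980 in A159V anti-PD1 (3.89%) had at least 3 Cxcl3 UMIs. In A159V IgG those 80 cells carried 36.9 CPM of macrophage markers and 48.9 CPM of neutrophil markers, against 38.8 and 51.0 CPM in tumor-like cells without Cxcl3. In A159V anti-PD1 the values were 75.1 and 59.2 CPM against 44.7 and 56.0 CPM. Macrophage marker RNA was thus higher in the Cxcl3-positive cells of A159V anti-PD1 and not in those of A159V IgG, and its part in the result was not tested beyond these values. The ratio of Cxcl2 to Cxcl3 UMIs in tumor-like cells was 26.2 in WT IgG (760 and 29 UMIs), 2.89 with IgG in A159V and 4.13 with anti-PD1 in A159V. It was 9.76 to 40.1 in macrophage-like and 15.4 to 29.2 in neutrophil-like cells of the 4 libraries. Cxcl1 was also higher in the Cxcl3-positive tumor-like cells of the A159V libraries, at 441 against 324 CPM in A159V IgG and 481 against 304 CPM in A159V anti-PD1. In WT IgG it was lower, at 202 against 302 CPM, on 3 Cxcl3-positive cells.

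**Figure D4:**
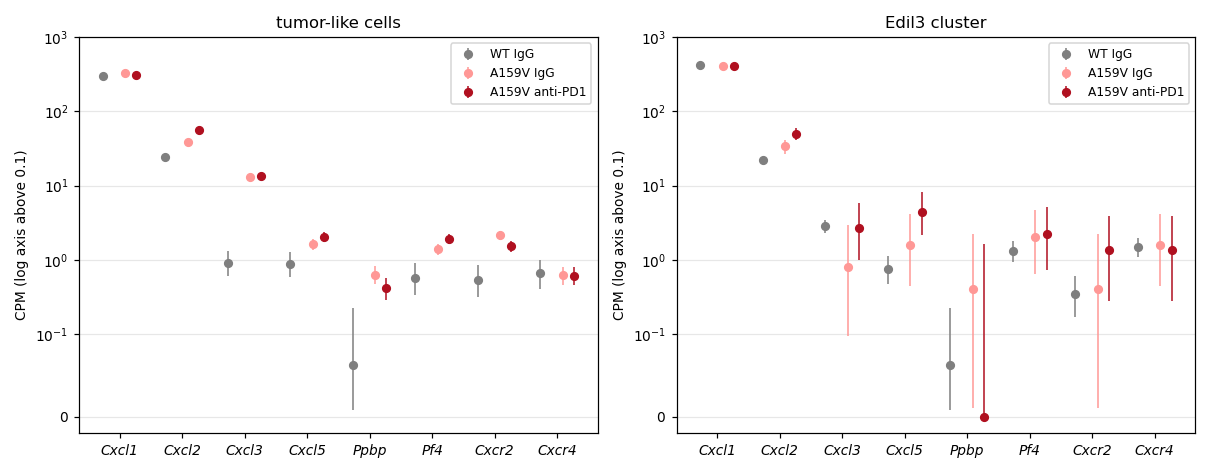
CPM (log axis above 0.1 CPM) of 8 members in tumor-like cells (left) and the Edil3 cluster (right) in the 3 libraries with at least 50 cells of each, with exact Poisson 95% intervals. Cxcl1 is level across the 3 libraries in both panels, while Cxcl3 in tumor-like cells is at 0.915 CPM in WT IgG and at 13.3 and 13.5 CPM in the A159V libraries.

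Cxcl2 in tumor-like cells was 24.0, 38.3 and 55.6 CPM in WT IgG, A159V IgG and A159V anti-PD1, with ratios of 0.65 (0.55 to 0.76) and 0.52 (0.46 to 0.59). Neither passed 2-fold, and the level was below the 50 CPM minimum in 2 of the 3 libraries. The part of free RNA in it was not tested.

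Cxcl5, a Cxcr2 ligand usually made by fibroblasts and epithelium, was a stromal gene in these tumors. Stromal-like cells held 170 CPM in WT IgG (154 to 189), 227 for WT anti-PD1 (221 to 233), 107 for A159V IgG (92.4 to 123), and 84.0 for A159V anti-PD1 (73.0 to 96.1). WT libraries were above A159V libraries, and no ratio passed 2-fold (-0.67 between the IgG libraries, 0.41 for anti-PD1 in WT and -0.34 for anti-PD1 in A159V). With the marker gate the first turned to 0.56 and the second was 1.80, past 2-fold. Within stromal-like cells the cluster led by Tnc, Cxcl5 and Acta2 carried most of it, at 236, 427, 161 and 140 CPM in the 4 libraries, against 88.5, 7.77, 26.9 and 47.0 CPM in the cluster led by Clec3b, Pi16 and Cxcl13. Leading genes were ranked on these same counts, so the first cluster's name and its high Cxcl5 are not separate results. For anti-PD1 in WT the clusters moved in opposite directions, with ratios of 0.85 and -3.35. Tumor-like cells held at most 2.03 CPM, and at those depths gave 40.2% and 40.6% of all Cxcl5 UMIs in the A159V libraries.

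Ppbp, the precursor of a platelet-derived Cxcr2 ligand, was rare. It was read in macrophage-like cells at 11.3, 10.3, 22.3 and 18.8 CPM (113, 83, 140 and 208 UMIs) and was at 0 UMIs in the neutrophil-like cells of all 4 libraries. Both A159V libraries were higher than both WT libraries, and the ratio between the IgG libraries was 0.92 (0.59 to 1.26), below the minimum level for a call. Only 19, 25, 37 and 46 macrophage-like cells held a Ppbp UMI. A single cell held 21 of the 113 UMIs in WT IgG and 32 of the 140 in A159V IgG, a clumping the counting interval leaves out. Macrophage-like cells with Ppbp also had Pf4 in 85.7%, 88.9%, 84.0% and 84.0% of cases, against 10.6%, 35.9%, 19.8% and 16.5% of cells without Ppbp. These shares rest on few thinned cells: 12, 8, 21 and 21 held both genes and 2, 1, 4 and 4 held Ppbp alone. Beside this, 6 other platelet or megakaryocyte markers summed to 2.60, 5.56, 1.27 and 2.17 CPM in macrophage-like cells, with 3 to 5 of the 6 above 0 and Gp1bb at 0 in all 4 libraries. The part of platelet RNA in the Ppbp level was not tested.

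Pf4 differed past 2-fold in macrophage-like cells in both comparisons with WT IgG. Its level was 448 CPM in WT IgG (435 to 461), 1537 for WT anti-PD1 (1510 to 1564), 1089 for A159V IgG (1064 to 1116), and 897 for A159V anti-PD1 (879 to 914). WT IgG was the lowest library, 2.43-fold below A159V IgG (log2 ratio 1.28, 1.23 to 1.34) and 3.43-fold below WT anti-PD1 (1.78, 1.73 to 1.83). For anti-PD1 in A159V the ratio had the other sign, at -0.28 (-0.33 to -0.24). The first ratio stayed between 1.11 and 1.41 and the second between 1.49 and 1.80 in every other processing setting run. Thinned shares of macrophage-like cells with a Pf4 UMI were 11%, 36.2%, 20.5% and 17.1% (15.6%, 50.6%, 23.8% and 22.6% unthinned), beside 0.105%, 1.56%, 0.603% and 1.22% of T-like cells. The gene was concentrated in few cells, with 95.7%, 71.3%, 87.1% and 90.5% of its UMIs in the richest 10%.

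The clusters that made up the macrophage-like class had different shares in WT anti-PD1. The cluster led by Retnla and Mrc1 (c7) held 80.7% of macrophage-like cells there and 3.34%, 2.61% and 6.36% in WT IgG, A159V IgG and A159V anti-PD1. It was also the cluster with high Pf4, at 2014, 1591, 5468 and 3285 CPM, next to the cluster led by Mmp8 and Arg1 (c5) at 1835, 2251, 2803 and 2023 CPM. Within c7 the ratio for anti-PD1 in WT was -0.34 (-0.44 to -0.24), and within c5 it was 0.29 (0.20 to 0.38), so the 3.43-fold difference of the class was not seen inside either cluster. It was -0.37 in the C1qa and Cd72 cluster (c3). Between the IgG libraries Pf4 was higher in A159V in all 5 macrophage-like clusters, by 1.81 in the Ly6c2 and Chil3 cluster (c1), 1.39 in c3, 0.61 in c5 and 1.44 in c7. In the Adgre4 and Ear2 cluster (c4) the ratio was 1.08, with 14 and 8 UMIs and an interval that included 0 (-0.03 to 2.19). The share of cells in c5 was 12.6% in WT IgG and 22.4% in A159V IgG. For anti-PD1 in A159V the ratios were -1.29, -1.03, -0.47 and -0.73 in c1, c3, c5 and c7, and 0.31 (-0.53 to 1.14) in c4.

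Cxcl1 and Cxcl3 in the same clusters did not follow Pf4. The rise of Cxcl1 in WT anti-PD1 was present within c7 (log2 ratio 1.72) and c3 (1.60) but was 0.12 in c5 and -0.93 in c4. Cxcl3 was mainly a gene of c5, at 901, 335, 813 and 1373 CPM in the 4 libraries. Within c5 its ratio was -1.42 for anti-PD1 in WT and 0.75 for anti-PD1 in A159V, while the ratio between the IgG libraries was -0.15. In c7 Cxcl3 was 23.8 CPM in WT IgG, from 11 UMIs, and 106 CPM in WT anti-PD1.

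**Figure D5:**
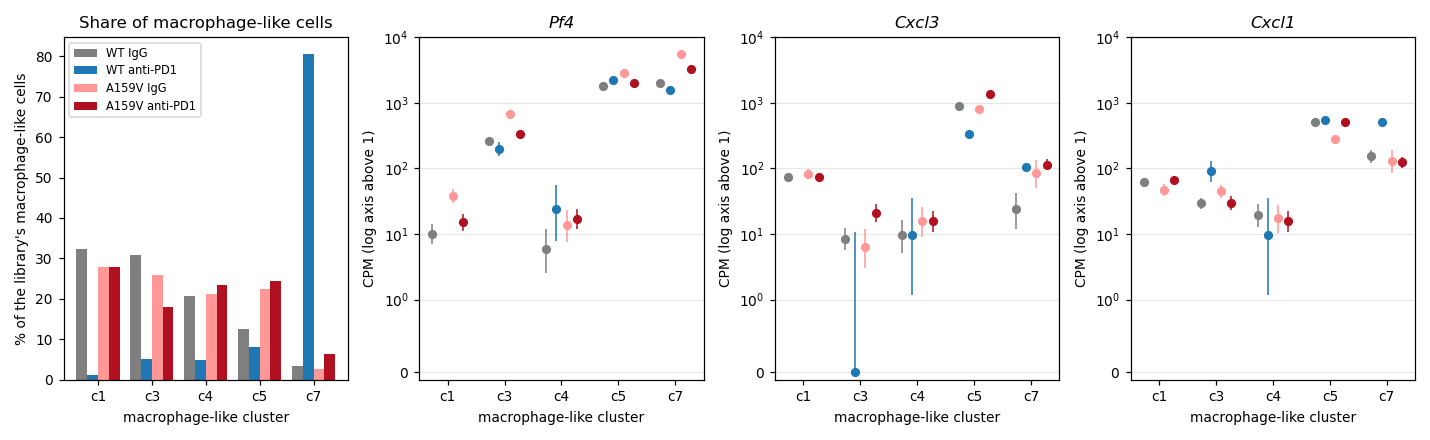
Share of each library's macrophage-like cells in each of 5 clusters (left, %), and CPM of Pf4, Cxcl3 and Cxcl1 by cluster (log axis above 1 CPM) with exact Poisson 95% intervals for the 4 libraries. Cluster c7 holds 80.7% of macrophage-like cells in WT anti-PD1, and Pf4 in A159V IgG lies above WT IgG in every cluster.

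In neutrophil-like cells Pf4 was read in 0, 19, 19 and 3 UMIs. In A159V IgG 14 of its 19 UMIs came from 1 cell, so its call against 0 UMIs in WT IgG rests on that cell and no fold is given. The ratio for anti-PD1 in A159V (-3.58, -5.19 to -1.97) rests on 3 and 19 UMIs.

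Cxcl12, the ligand of Cxcr4, was a gene of the stroma and vessels. Stromal-like cells held 1117 CPM in WT IgG (1074 to 1162), 705 for WT anti-PD1 (694 to 715), 608 for A159V IgG (573 to 645), and 698 for A159V anti-PD1 (666 to 732). WT IgG was the highest and the other 3 lay near each other. The ratios were -0.88 (-0.98 to -0.77) between the IgG libraries, -0.66 (-0.72 to -0.60) for anti-PD1 in WT and 0.20 (0.09 to 0.31) for anti-PD1 in A159V, and none passed 2-fold. With cells gated on marker UMIs, which put 285 cells of WT IgG in the class in place of 147, the first became 0.36 and the second 0.75. Thinned shares of stromal-like cells with a Cxcl12 UMI were 47.9%, 40.4%, 40.0% and 43.9% (95.2%, 87.8%, 75% and 83.9% unthinned), and their 95% intervals overlapped. T-like cells had 0.211%, 0.857%, 0% and 0.282%. The high level of WT IgG lay in the Clec3b and Pi16 cluster, where Cxcl12 was 1661 CPM against 689, 761 and 883 CPM in the other 3 libraries. In the Tnc and Acta2 cluster it was 681, 719, 504 and 417 CPM. Endothelial-like cells of WT anti-PD1 held 842 CPM (801 to 886) and gave 8.08% of that library's Cxcl12 UMIs.

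Cxcr2, the receptor of the ELR ligands, marked the neutrophil-like cells. It was 480 CPM in WT IgG (374 to 606), 519 for WT anti-PD1 (473 to 567), 327 for A159V IgG (244 to 431), and 338 for A159V anti-PD1 (277 to 407), from 70, 482, 51 and 109 UMIs. Both WT libraries were above both A159V libraries, with overlapping intervals between the IgG libraries. The log2 ratio was -0.55 (-1.07 to -0.03) between the IgG libraries, 0.11 (-0.25 to 0.47) for anti-PD1 in WT and 0.04 (-0.43 to 0.52) for anti-PD1 in A159V. Both anti-PD1 intervals included 0. With cells gated on marker UMIs the ratio for anti-PD1 in WT was 0.99, outside the interval above. Thinned shares of cells with a Cxcr2 UMI were 31.8%, 37.0%, 28.9% and 29.3% (45.7%, 48.2%, 32.6% and 31.0% unthinned), at median depths of 1302 to 1518 UMIs. T-like cells had 0.211%, 0.156%, 0.151% and 0% at 1643 to 3070 UMIs.

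Tumor-like cells gave 75.4% of all Cxcr2 UMIs with IgG and 47.3% with anti-PD1 in A159V, where they gave 84.3% and 78.5% of the UMIs of all genes. In WT IgG the shares were 15.9% and 38.3%. Their level was only 0.537, 2.15 and 1.52 CPM in WT IgG, A159V IgG and A159V anti-PD1 (17, 184 and 131 UMIs), with a ratio of 1.03 (0.76 to 1.31) between the IgG libraries and of -0.32 (-0.53 to -0.12) for anti-PD1 in A159V. T-like cells of the same 3 libraries stood at 0.557, 1.17 and 0 CPM, from 2, 2 and 0 UMIs. The thinned share of tumor-like cells with a Cxcr2 UMI was 0%, 0.300% and 0.254%, too near that of a single UMI per cell to compare. The part of free RNA in these counts was not tested.

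Cxcr4, the receptor for Cxcl12, was spread over the leukocytes. In neutrophil-like cells it was 528 CPM in WT IgG (417 to 660), 550 for WT anti-PD1 (503 to 600), 231 for A159V IgG (162 to 320), and 192 for A159V anti-PD1 (147 to 246). The A159V libraries lay below the WT libraries with no overlap of intervals. The ratio between the IgG libraries was -1.19 (-1.76 to -0.62), past 2-fold on 36 and 77 UMIs, and it was -0.96 when cells with more than 200 genes were kept, -0.86 with the marker gate and -1.0 within the Retnlg and S100a9 cluster. For anti-PD1 the ratio was 0.06 (-0.29 to 0.40) between the WT and -0.27 (-0.86 to 0.32) between the A159V libraries. Thinned shares were 30.7%, 35.3%, 19.3% and 17.0% (37.0%, 45.9%, 28.4% and 22.2% unthinned), against 0% to 0.685% of stromal-like cells at median depths of 7901 to 14170 UMIs.

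Macrophage-like cells held 230, 226, 207 and 156 CPM of Cxcr4 and gave 77.4%, 48.1%, 79.1% and 72.3% of its UMIs. Their ratios were -0.15, -0.02 and -0.41 in the 3 comparisons. T-like cells stood at 63.5, 98.4, 61.6 and 57.9 CPM, and dendritic-like cells at 140, 232, 76.7 and 130 CPM. The endothelial-like cells of WT anti-PD1 held 65.8 CPM, and tumor-like cells stayed below 1 CPM in every library. Cxcl12 was thus read in stromal-like and endothelial-like cells and Cxcr4 mainly in leukocytes.

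The neutrophil-like cells of WT anti-PD1 formed a cluster of their own, which held 98.9% of them, while 87.0%, 100% and 96.3% of those in WT IgG, A159V IgG and A159V anti-PD1 lay in the Retnlg and S100a9 cluster. Cells carrying both receptors made up 15.9%, 12.8%, 7.23% and 6.91% of thinned neutrophil-like cells, and the product of the single shares was 9.76%, 13%, 5.57% and 4.98%. The product lay inside the exact binomial 95% interval of the observed share in each library, nearest to its bound in WT IgG (8.98% to 25.2%). That interval leaves out the error of the product, so it does not show that the receptors were independent. Cxcr4 was found in 50%, 34.7%, 25% and 23.6% of cells with Cxcr2, against 21.7%, 35.6%, 16.9% and 14.3% of cells without Cxcr2. The association was not tested. Cxcl2 was found in 94.5% to 100% of cells with Cxcr2 and in 91.5% to 99.4% of cells without it.

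Genes around this axis were taken as 7 lists. The upstream cytokines include Il1b, Il1a and Tnf, which are known to raise ELR chemokines. In neutrophil-like cells 3 of 8 were above the minimum, and between the IgG libraries 2 of those were lower in A159V, where 16.5% of all genes passed 2-fold. Il1b was 7314 CPM in A159V IgG against 14877 in WT IgG (log2 ratio -1.02), and Il1a was 315 against 919 CPM (-1.54). Tnf, 1 of 3, was higher with anti-PD1 in WT, at 2315 against 878 CPM (1.40), where 27.8% of all genes passed 2-fold. In macrophage-like cells 4 of 8 were above the minimum and none passed 2-fold in any of the 3 comparisons. Il17a and Il17f, which act on stroma to induce these chemokines, had 0 UMIs in neutrophil-like cells of all 4 libraries. Their values in other classes, T-like cells included, are not given here, so this does not show that they were absent from the tumors. In stromal-like cells Il6 was the single list gene above the minimum in the comparisons with WT IgG. Its log2 ratios were -1.06 for A159V IgG and -1.61 for WT anti-PD1, both past 2-fold, beside 0.659% and 8.78% of all genes.

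Among 8 other chemoattractant receptors of neutrophils, 6 were above the minimum in neutrophil-like cells. Fpr1, a receptor for formyl peptides, was lower in A159V between the IgG libraries (log2 ratio -1.11), and this 1 of 6 stands beside 16.5% of all genes. Fpr2 (1.57), the leukotriene receptor Ltb4r1 (1.64) and the platelet-activating factor receptor Ptafr (1.24) were higher with anti-PD1 in WT, 3 of 6 beside 27.8% of all genes, and none of the 6 passed 2-fold for anti-PD1 in A159V. The median over the 6 was -0.36, 0.71 and 0.40 in the 3 comparisons, where all genes tested had medians of 0.12, 0.01 and -0.05.

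Of the 8 NF-kappa B response genes, 8, 8 and 7 were above the minimum in neutrophil-like cells in the 3 comparisons. Between the IgG libraries 1 of 8, Relb, was lower in A159V (-1.52), a share below the 16.5% of all genes. With anti-PD1 in WT 1 of 8, Tnfaip3, was higher (1.08), below the 27.8% of all genes. The medians were -0.45, 0.46 and 0.12. In macrophage-like cells all 8 were above the minimum and 0 passed 2-fold in each comparison, with medians of -0.19, -0.10 and 0.07. Of the proteases and carriers of chemokines, Mmp8, the neutrophil collagenase, was higher in A159V IgG in macrophage-like (1.10) and neutrophil-like cells (1.08), and Mmp9 was higher in neutrophil-like cells of WT anti-PD1 (1.57). These were 1 of 3 in each case, beside 0.593%, 16.5% and 27.8% of all genes. In macrophage-like cells of WT anti-PD1 the heparan sulfate carrier Sdc4 was higher (1.54) and Srgn lower (-1.03), 2 of 2 above the minimum, beside 14.7% of all genes. Of the cytokine receptors 5 of 7 were above the minimum in neutrophil-like cells. In the 3 comparisons 0, 1 and 0 passed 2-fold, beside 16.5%, 27.8% and 11% of all genes, the 1 being Il17ra with anti-PD1 in WT (1.03). Only 1 of 5 scavenging or atypical chemokine receptors reached the minimum in neutrophil-like or macrophage-like cells, and it did not pass 2-fold. The 9 immediate early genes, which tissue dissociation can raise, had medians of -0.20, -0.26 and 0.15 in neutrophil-like cells and of -0.20, 0.23 and -0.01 in macrophage-like cells. In neutrophil-like cells Fosb (-1.28) and Hspa1b (1.25) passed 2-fold between the IgG libraries, Fosb (1.18) and Hspa1a (-1.10) for anti-PD1 in WT, and Hspa1a (1.23) and Hspa1b (1.35) for anti-PD1 in A159V, which is 2 of 9 in each, beside 16.5%, 27.8% and 11% of all genes. In macrophage-like cells Egr1 (1.80) and Atf3 (-1.05) passed it for anti-PD1 in WT, 2 of 9 beside 14.7% of all genes. The part of the immediate early genes in the member ratios was not tested.

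The genes most like each member were ranked by Pearson's r of log2 levels over 32 profiles of class and library, among 8260 genes, and the profiles share libraries, so r is a description. Cxcl2 lay closest to Acod1 (0.972), C5ar1 and Csf3r (both 0.971), and Cxcl3 to Clec4d (0.925), Fpr1 (0.920) and Il1a (0.918). Cxcr2 lay closest to the neutrophil genes Cstdc4 (0.984), Chil1 (0.981) and Stfa2l1 (0.98), and Cxcr4 to Pde4b (0.965), Cyth1 (0.95) and Nrros (0.949). Pf4 lay closest to Trem2 (0.921), Arg1 (0.909) and Ms4a8a (0.899), and Cxcl1 to Ptges (0.903), Mgst1 (0.90) and Sod2 (0.899). Cxcl5 lay closest to Col12a1 (0.968), Ccbe1 (0.958) and Aldh1a1 (0.955), and Cxcl12 to Igfbp3, Lama4 (both 0.977) and Gpc4 (0.973). Ppbp reached 50 CPM in no profile and was not ranked.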

How the data were processed

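The authors made the counts with Cell Ranger and deposited 1 filtered UMI count matrix per library (mm10, 10x 3′ chemistry). The matrix headers name Cell Ranger 7.2.0 and the submitters' processing notes 5.0.1. The corrections for ambient RNA and doublets that the authors describe came after these counts and are not in them. Here, cells with more than 500 genes were kept, doublets were scored and removed at 0.8% per 1000 barcodes, and cells were clustered (scanpy 1.11.5, Leiden resolution 1, 2000 variable genes without the members, 20 components) and named from 15 marker lists. A class was compared where both libraries had at least 50 cells. UMIs were summed per class, and ratios are log2 of CPM plus 1. With 1 library per group no test was possible. Scripts were tested on simulated data. The members, marker lists and pathway lists were chosen with earlier results of these data known. Named genes are the members, genes of 7 pathway lists and the 3 genes most like each member, beside marker genes and cluster leaders. The list genes given with values were picked after their values were seen. Alternatives changed the gene minimum, mitochondrial limit, doublets, clustering, a gate on marker UMIs, scaling, pseudocount and minimum level. Counting the Edil3 cluster as tumor-like, the Retnlg and S100a9 cluster alone and equal cell weights were added after seeing the data.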

Additional observations from a re-analysis of the deposited data

Results flagged for a closer look

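Anti-PD1 against IgG gave opposite signs in the WT and A159V libraries for 6 member and class pairs in which both counting intervals excluded 0. With 1 library per group the difference was not tested. The share of all genes with such opposite signs was not computed, so the count of 6 is not a result about these members. The log2 ratios in WT and in A159V were 4.06 and -0.86 for Cxcl1 in neutrophil-like cells, 1.78 and -0.28 for Pf4 in macrophage-like cells, and -0.39 and 0.77 for Cxcl3 in macrophage-like cells. They were -0.66 and 0.20 for Cxcl12 and 0.41 and -0.34 for Cxcl5 in stromal-like cells, and 0.89 and -1.25 for Cxcl2 in T-like cells. With cells gated on marker UMIs the opposition was lost for Cxcl12 (0.75 and 0.38) and for Cxcl1, whose A159V ratio turned to 0.18. WT anti-PD1, the library that stood apart in its cell makeup, enters each of the WT ratios.

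Barcodes left out for having 500 genes or fewer held neutrophil RNA. Cxcl2 stood at 3975 CPM in those of WT IgG and at 10844 CPM for WT anti-PD1, 11885 for A159V IgG and 8173 for A159V anti-PD1. For Cxcr2 the values were 36.4, 107, 92.9 and 68.2 CPM in the same order. The neutrophil markers summed to 6366, 10494, 18931 and 10915 CPM there in the 4 libraries, and the neutrophil-like counts above leave these barcodes out.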

How the results depend on the processing

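No paired analysis was possible because each group was 1 library. Class-level ratios rested on 1 library per side, and neutrophil-like cells numbered 92 to 558 at median depths of 1302 to 1518 UMIs, so few UMIs of a member (7 to 757 for Cxcl1, 51 to 482 for Cxcr2) set their precision. Of 155 alternative values of the main ratios, 104 stayed within the counting interval, 45 moved beyond it and 6 changed sign where that interval excluded 0, and 147 of the 155 kept their sign. Of 491 for the other ratios above the minimum level, the counts were 389, 82 and 20, and 456 of the 491 kept their sign. Ratios below that level, Cxcl3 in tumor-like cells among them, were not rerun. The cause of these shifts was not tested. More than 1000 genes per cell left no neutrophil-like cells, and the Retnlg and S100a9 cluster held too few cells of WT anti-PD1. The 11 calls became 18 with a minimum of 10 CPM and 39 with 1 UMI in each library.

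With cells gated on marker UMIs, Cxcr2 in neutrophil-like cells for anti-PD1 in WT was 0.99. Cxcl12 in stromal-like cells turned to 0.36 (A159V IgG over WT IgG) and 0.75 (anti-PD1 in WT) and was 0.38 for anti-PD1 in A159V, while Cxcl5 there turned to 0.56 between the IgG libraries. Cxcl2 in neutrophil-like cells turned to 0.45 (anti-PD1 in WT) and 0.12 (in A159V), and Cxcl1 to 0.18 (in A159V). Cxcr4 in dendritic-like cells turned to 0.49 between the IgG libraries. Median-of-ratios scaling turned Cxcl2 in neutrophil-like cells for anti-PD1 in A159V to 0.0038. With predicted doublets kept, Cxcl12 between the IgG libraries was -1.04, and for anti-PD1 in WT it was -0.73 with median-of-ratios scaling and -0.87 with equal weights.

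Cxcl2 in macrophage-like cells between the IgG libraries was 0.11 with more than 1000 genes and -0.10 with each library clustered on its own. For anti-PD1 in WT it was 0.52 and 0.55 with more than 1000 and 200 genes, 0.65 with doublets kept or equal weights, 0.54 and 0.48 at resolutions 0.4 and 2, 0.37 clustered apart, 0.57 gated and 0.54 with median-of-ratios scaling. In A159V it was 0.22, 0.30, 0.29, 0.26, 0.23 and 0.38 with more than 1000 and 200 genes, resolutions 0.4 and 2, the gate and equal weights.

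Pf4 in macrophage-like cells between the IgG libraries was 1.41 with more than 1000 genes, 1.11 clustered apart, 1.35 gated and 1.36 with equal weights. For anti-PD1 in WT it was 1.67, 1.68, 1.69, 1.58, 1.49, 1.71, 1.69 and 1.65 with more than 1000 and 200 genes, resolutions 0.4 and 2, clustering apart, the gate, median-of-ratios scaling and equal weights. In A159V it was -0.42, -0.22, -0.37, -0.23 and -0.35 with more than 1000 genes, doublets kept, resolution 2, clustering apart and equal weights.

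Cxcl1 in tumor-like cells between the IgG libraries was 0.29 with more than 1000 genes, 0.20 with doublets kept, 0.057 clustered apart, -0.15 gated and -0.12 with the Edil3 cluster included. For anti-PD1 in A159V it was -0.11 with the mitochondrial limit or the gate, 0.064 clustered apart, -0.14 with median-of-ratios scaling and -0.16 with equal weights.

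Cxcl2 in dendritic-like cells between the IgG libraries turned to -1.05 and -1.51 with more than 1000 and 200 genes, -0.35 with doublets kept, -1.27 at resolution 0.4, -0.69 clustered apart and -2.64 gated. For anti-PD1 in WT it turned to -0.18 with more than 1000 genes, -0.39 with the mitochondrial limit and -0.46 with doublets kept, and Cxcr4 there to -0.055 at resolution 0.4 and -0.029 clustered apart. Cxcl2 in stromal-like cells for anti-PD1 in WT turned to 0.39 with doublets kept, 1.26 gated and 0.12 with equal weights.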
